A study of Mus musculus with 11 samples.

Results

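The transcripts of 10 astrocyte genes were followed in RNA from mouse microglia measured on 11 single-colour arrays. The genes were Gfap, Chil1, S100b, Slc1a2, Slc1a3, Aldh1l1, Aldoc, Gja1, Sox9 and Clu. They were found by matching the RefSeq accession of each array probe to a gene symbol, and all 10 had a probe and passed the filter on dim signals, among 19555 genes tested. All animals were C57BL/6N mice. A_FACS (2 arrays) held microglia of adult female mice and NB_FACS (3 arrays) held microglia of newborn mice of both sexes. Both were dissociated by enzyme digestion, freed of myelin on a density gradient and sorted by flow cytometry on intermediate CD45 and high CX3CR1, and RNA was taken at once. That gate should leave astrocytes out. NB_Control (3 arrays) held microglia from flask cultures of newborn brain cells fed with L-929 conditioned medium. They were shaken off weeks after the brain cells were isolated, then kept for 1 day in medium with fetal bovine serum. NB_Stim (3 arrays) held such cells given 3 human factors during that day, TGF-β1, CX3CL1 and IL-34, 100 ng/mL of every factor. The cultured groups therefore differ from NB_FACS in isolation method and time in culture together. Flasks were harvested in several rounds, and which round gave each array is not stated. The adult group differs from NB_FACS in age, in the sex of the mice and in handling together. By the study's methods, adult mice were killed with CO2 and perfused, and their brains were pressed through a strainer. Newborn mice were decapitated and their brains dissociated by pipette.

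Astrocytes are the glial cells that take up glutamate and potassium, supply neurons with metabolites, and are joined to each other by gap junctions. After injury or in culture they become reactive and raise intermediate filaments and secreted proteins. In flasks of newborn brain cells they commonly form the adherent layer on which microglia grow. Microglia share some of these transcripts, so none of the 10 genes is a count of astrocytes. In bulk RNA, fewer cells of a type and less RNA per cell cannot be told apart.

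Of the 10 genes, 7 were read by 1 probe each, Gfap and Slc1a2 by 3 each and Clu by 2. The probes of 1 gene shared no run longer than 7 bases with each other. Several of them gave different results, so the first 30 bases of each of these 8 probes are shown, 5′ to 3′, as the deposited scanner data list them, which give no genome position for them.
Gfap MMXS15452: tagtcgacaactgggtaccatgccacgctt
Gfap MMXS18491: ttcttcctcccaggcctcctctaagggact
Gfap MMXS33808: ttgaggaactgaaacgtgttgtgttcaagc
Slc1a2 MMXS20953: acagattcccacatccacctcacccctcta
Slc1a2 MMXS47700: tcaaaatgatgtggaatgcattgctactga
Slc1a2 MMXS55483: ctctaatcagtgtgtctatgccgcacacaa
Clu MMXS38109: gttctgccttctctgcagtcctaaattcct
Clu MMXS50210: ctctggattctgtacactaatgcctgcact

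Of the 60037 probes, 138 were left out for outlier flags. Across the rest, 66.8% to 80.4% were well above background on each array, and no spot was saturated. Slide 1 carried 8 arrays, and slide 2 carried replicate 3 of each newborn group. Before normalisation, slide 2 arrays were brighter, with a 75th percentile between 444 and 507 against 174 to 315 for slide 1. A list of 13 microglia genes had a mean level of 14.14 to 14.2 in A_FACS, 13.28 to 13.42 in NB_FACS, 11.65 to 12.26 in NB_Control and 12.96 to 13.05 in NB_Stim. Tmem119, a defining microglia gene, was at 14.04 ± 0.095 in NB_FACS and 10.36 ± 0.36 in NB_Control. P2ry12, the microglial purinergic receptor, was at 6.51 ± 0.37 in NB_Control and 7.54 ± 0.66 in NB_Stim against 12.95 ± 0.14 in NB_FACS. Levels throughout are log2 quantile-normalised intensities, given for each array or as the group mean ± SD, and they compare arrays for the same gene but not genes with each other. The number of arrays limits the precision. A difference was called at an adjusted p under 0.05 in limma's moderated two-sided test over all 19555 genes. Of the 13 microglia genes, 5 were called lower and 1, Tyrobp, higher in NB_Control than in NB_FACS, beside 13.9% and 15.8% of all genes. Their median difference was -0.36. In NB_Stim 2 were lower and 1 higher than in NB_FACS, beside 15.1% and 16.0%, with a median of -0.02.

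Some of the astrocyte genes were higher in culture and others were lower in the adult. Against NB_FACS, 4 of the 10 genes were called higher in NB_Control (Gfap, Chil1, S100b and Aldoc) and 0 were called lower, where 15.8% of all genes were called higher and 13.9% lower. In NB_Stim, 6 were called higher than in NB_FACS, the same 4 with Slc1a2 and Clu, and 0 lower, beside 16.0% and 15.1% of all genes. The median difference of the 10 genes was 0.84 in NB_Control and 1.08 in NB_Stim, beside 0.09 and 0.11 over all genes. Between NB_Stim and NB_Control 0 of the 10 genes were called, where 1.40% of all genes were called higher and 2.00% lower. Only 1 of them, Aldh1l1, was at an unadjusted p under 0.05 there.

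The adult samples differed in the other direction. In A_FACS against NB_FACS 4 genes were called lower (Gja1, Sox9, Aldh1l1 and Slc1a2) and 0 higher, beside 12.9% and 9.75% of all genes. Against NB_Control 8 genes were called lower in A_FACS and 0 higher, where 23.2% and 17.7% of all genes were called. Against NB_Stim 7 were called lower and 0 higher, beside 22.8% and 17.5% of all genes. The median difference of the 10 genes was -0.19 against NB_FACS, -1.75 against NB_Control and -1.98 against NB_Stim, and that of all genes was -0.01, -0.11 and -0.1. These comparisons share arrays with each other.

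**Figure D1:**
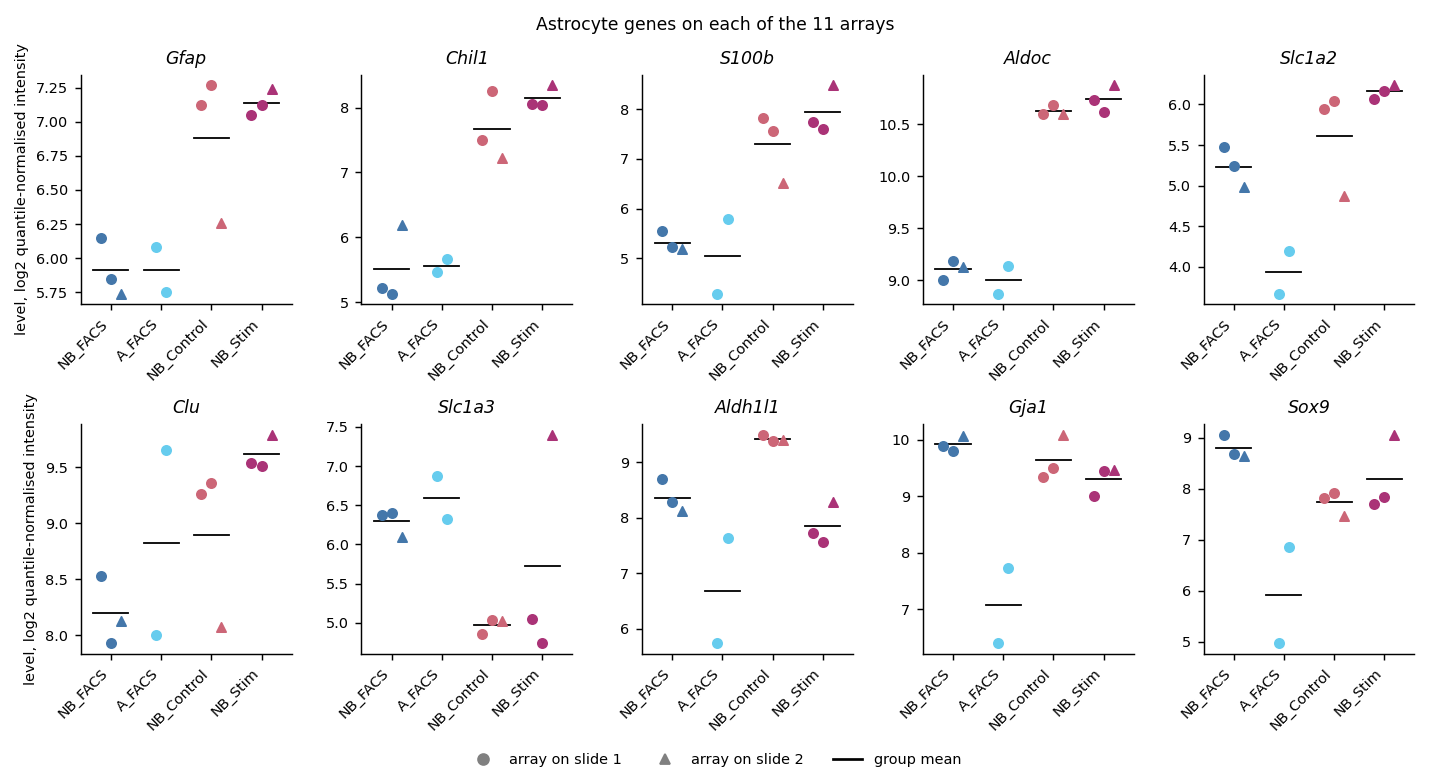
Level of each of the 10 astrocyte genes (vertical axis, log2 quantile-normalised intensity, a separate scale in each panel) on the 11 arrays, grouped along the horizontal axis. Circles are arrays on slide 1, triangles arrays on slide 2 and bars group means. Gfap, Chil1, S100b and Aldoc are higher on the cultured arrays than on all sorted arrays, whereas Gja1 and Sox9 are lowest on the 2 A_FACS arrays.

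Gfap encodes the intermediate filament protein by which astrocytes are usually recognised. Its level was 6.15, 5.85 and 5.74 on the NB_FACS arrays, 7.12, 7.27 and 6.26 on the NB_Control arrays, and 7.05, 7.12 and 7.24 on the NB_Stim arrays. In A_FACS it was 6.08 and 5.75. Every cultured array was above every sorted array, with NB_Control replicate 3 the nearest to the sorted arrays. NB_Control exceeded NB_FACS by 0.97 ± 0.25 (SE, adjusted p 0.0149) and NB_Stim by 1.22 ± 0.25 (adjusted p 0.00438). The adult and newborn sorted groups had the same mean level of 5.92, with a 95% interval of the difference from -0.63 to 0.62. The call in NB_Control was lost without NB_FACS replicate 2 (adjusted p 0.0515), NB_Control replicate 1 (0.0614) or NB_Control replicate 2 (0.062). Both culture calls were lost with the probe MMXS18491 alone (adjusted p 0.253 and 0.186) and by the Tukey test of the study's methods (adjusted p 0.135 and 0.0561).

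The 3 Gfap probes moved by different amounts. The probe MMXS33808 read 6.38, 5.8 and 4.24 in NB_FACS, 7.89, 8.13 and 5.59 in NB_Control and 7.75, 7.75 and 7.32 in NB_Stim. On slide 2 it was the lowest of each newborn group. By this probe NB_Control exceeded NB_FACS by 1.73 ± 0.72 and NB_Stim by 2.13 ± 0.72. MMXS15452 differed by 0.72 ± 0.19 and 1.02 ± 0.19. MMXS18491, whose accession is a non-coding transcript record, differed by 0.46 ± 0.27 and 0.51 ± 0.27, and its NB_FACS array on slide 2, at 6.79, was within the range of the cultured arrays.

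Chil1 encodes a secreted chitinase-like protein that reactive astrocytes and some macrophages make, and it was used in the study with Gfap as an astrocyte marker. It was at 5.22, 5.13 and 6.19 in NB_FACS, 7.5, 8.26 and 7.23 in NB_Control and 8.06, 8.04 and 8.35 in NB_Stim. The adult arrays were at 5.46 and 5.66, inside the range of NB_FACS. Cultured and sorted arrays did not overlap. NB_Control was 2.15 ± 0.32 above NB_FACS (adjusted p 0.000696), a 4.45-fold difference, and NB_Stim 2.64 ± 0.32 (adjusted p 0.000207). Both calls held under every alternative run.

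S100b, a calcium-binding protein of astrocytes and oligodendrocyte lineage cells, was also higher in culture. Its level was 5.55, 5.22 and 5.18 in NB_FACS, 7.82, 7.57 and 6.51 in NB_Control and 7.74, 7.61 and 8.49 in NB_Stim. Cultured and sorted arrays again did not overlap, and NB_Control and NB_Stim were 1.98 ± 0.44 (adjusted p 0.00669) and 2.63 ± 0.44 (adjusted p 0.00137) above NB_FACS. Within slide 1 it was 2.31 in NB_Control and 2.29 in NB_Stim, and within slide 2, with 1 array per group, 1.33 and 3.31. The 2 adult arrays, at 4.29 and 5.8, lay on either side of NB_FACS.

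Aldoc encodes a glycolytic aldolase of astrocytes. It was at 9, 9.18 and 9.13 in NB_FACS, 10.6, 10.69 and 10.6 in NB_Control, 10.74, 10.62 and 10.88 in NB_Stim, and 8.87 and 9.14 in A_FACS. Its order was therefore sorted below cultured, with no array out of place. Against NB_FACS, NB_Control was 1.53 ± 0.13 higher (adjusted p 2.33e-05) and NB_Stim 1.64 ± 0.13 (adjusted p 1.55e-05), and within the slides these differences were 1.47 to 1.75. Both calls held under every alternative run. The interval of the difference between NB_Stim and NB_Control, -0.17 to 0.41, spans 0.

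Aldh1l1 encodes a folate enzyme that marks most astrocytes, and its pattern was another. Its levels were 8.7, 8.28 and 8.12 in NB_FACS, 9.5, 9.38 and 9.41 in NB_Control, 7.72, 7.57 and 8.29 in NB_Stim and 5.74 and 7.63 in A_FACS. NB_Control stood above every other array. NB_Stim differed from NB_Control by -1.57 ± 0.41, which did not pass the threshold (adjusted p 0.0756), although the groups did not overlap and the sign was the same within both slides (-1.8 and -1.12). The adjusted p was 0.00662 without either adult array, which take no part in that difference but share the estimate of the spread, and 0.0487 with the 75th percentile scaling. NB_Control was 1.06 ± 0.41 above NB_FACS (adjusted p 0.0775) and A_FACS differed from NB_FACS by -1.68 ± 0.45 (adjusted p 0.0248). The adult call rests on A_FACS replicate 1, without which the difference was -0.74 (adjusted p 0.168), and it was also lost without NB_FACS replicate 1 (adjusted p 0.0682) or 2 (0.0545).

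The 2 glutamate transporters, which clear the transmitter from the synaptic space, did not move together. Slc1a2, the GLT-1 transporter of mature astrocytes, was at 5.47, 5.24 and 4.98 in NB_FACS, 5.94, 6.04 and 4.87 in NB_Control, 6.07, 6.17 and 6.24 in NB_Stim and 3.67 and 4.2 in A_FACS. Averaged over its 3 probes, which disagree, NB_Stim lay above all other arrays and A_FACS below them, while NB_Control replicate 3 fell below NB_FACS. NB_Stim exceeded NB_FACS by 0.93 ± 0.29 (adjusted p 0.0371) and NB_Control by 0.39 ± 0.29 (adjusted p 0.379), or by 0.76 (adjusted p 0.0222) without its replicate 3. Without any 1 of the NB_FACS or NB_Stim arrays the NB_Stim call was lost, with adjusted p between 0.0502 and 0.0943.

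The Slc1a2 probes moved differently. MMXS55483 was at 5.82, 5.23 and 4.27 in NB_FACS, 6.18, 6.57 and 4.28 in NB_Control and 6.76, 6.59 and 7.99 in NB_Stim, and it was not well above background on either A_FACS array. NB_FACS was at least 3.63-fold and NB_Stim at least 14.6-fold above A_FACS by this probe, taking for each A_FACS array the lowest signal among probes well above background or the probe's own where that was higher. MMXS55483 was 0.57 ± 0.67 higher in NB_Control and 2.01 ± 0.67 in NB_Stim than in NB_FACS. MMXS20953 was 0.76 ± 0.32 and 0.52 ± 0.32 higher. MMXS47700 stayed between 3.29 and 4.38 on all 11 arrays, where the lowest level well above background was 2.6 to 4.03. It was not well above background on A_FACS replicate 1, so a probe this dim could show little change. On NB_Stim replicate 3 MMXS20953 read 6.36, below the NB_FACS arrays at 6.45, 6.49 and 6.94. The gene's NB_Stim call against NB_FACS was lost with only probes well above background on all arrays (adjusted p 0.218) and with no filter on dim probes (0.0511). The gene's difference of -1.29 ± 0.33 between A_FACS and NB_FACS (adjusted p 0.0194) was -0.46 (adjusted p 0.376) when only probes well above background on all arrays were kept. This adult call was lost without A_FACS replicate 1 (adjusted p 0.156), NB_FACS replicate 1 (0.0552) or NB_FACS replicate 2 (0.0503). It was also lost with normexp background correction (-0.30, adjusted p 0.142), with 75th percentile scaling (-1.01, adjusted p 0.0682) and by the methods' Tukey test (adjusted p 0.179).

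Slc1a3, the GLAST transporter, which radial glia and young astrocytes also carry, was lower on all but 1 of the cultured arrays. It was at 6.38, 6.4 and 6.1 in NB_FACS, 4.86, 5.04 and 5.03 in NB_Control, 5.05, 4.74 and 7.4 in NB_Stim and 6.87 and 6.32 in A_FACS. NB_Stim replicate 3 alone exceeded all other arrays. The difference of NB_Control from NB_FACS was -1.32 ± 0.56 (adjusted p 0.112), and without NB_Stim replicate 3 it passed the threshold at the same size (adjusted p 0.000542). That array also moved the comparisons of NB_Stim. NB_Stim differed from NB_FACS by -0.56 ± 0.56 (adjusted p 0.49) with it and by -1.40 (adjusted p 0.000881) without it. A_FACS was 0.86 ± 0.63 above NB_Stim (adjusted p 0.302) with it and 1.70 above (adjusted p 0.000425) without it. NB_Stim minus NB_Control was -0.05 within slide 1 and 2.37 within slide 2. With a replicate block A_FACS was 1.88 above NB_Control (adjusted p 0.0377), against 1.62 ± 0.63 (adjusted p 0.0653) without the block.

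**Figure D2:**
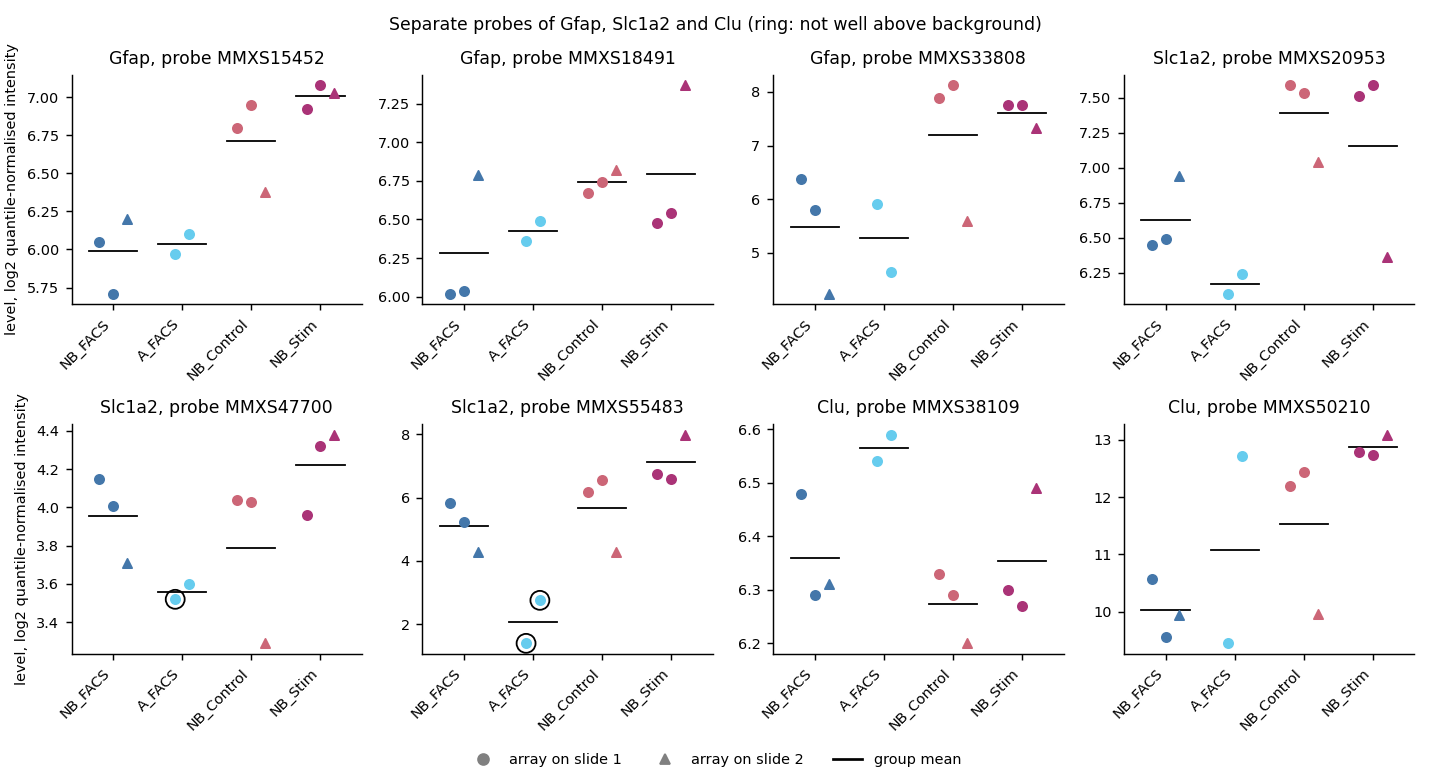
Level of each probe of Gfap, Slc1a2 and Clu (vertical axis, log2 quantile-normalised intensity, a separate scale in each panel) on the 11 arrays by group, with circles for slide 1, triangles for slide 2, bars for group means and a ring around arrays where the probe was not well above background. The Clu probe MMXS38109 stays between 6.2 and 6.59 while MMXS50210 runs from 9.45 to 13.09, and the Slc1a2 probe MMXS55483 is ringed on both A_FACS arrays.

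Clu encodes clusterin, a secreted chaperone that astrocytes release in quantity. Averaged over its probes it was at 8.53, 7.93 and 8.13 in NB_FACS, 9.26, 9.36 and 8.08 in NB_Control, 9.54, 9.51 and 9.79 in NB_Stim and 8 and 9.65 in A_FACS. NB_Stim was 1.42 ± 0.44 above NB_FACS (adjusted p 0.0331), a call lost without NB_FACS replicate 2 or 3 or any 1 NB_Stim array (adjusted p 0.0682 to 0.107). The movement was in MMXS50210, which read 10.58, 9.56 and 9.95 in NB_FACS, 12.2, 12.44 and 9.96 in NB_Control, 12.78, 12.74 and 13.09 in NB_Stim and 9.45 and 12.72 in A_FACS. By this probe NB_Control replicate 3 was at the level of NB_FACS, while A_FACS replicate 1 was the lowest of all arrays and A_FACS replicate 2 lay just below NB_Stim. MMXS38109 read 6.2 to 6.59 on all arrays. By MMXS50210 alone NB_Stim was 2.84 ± 0.82 above NB_FACS, so that averaging with the flat probe made the difference smaller.

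Gja1 encodes connexin 43, the main gap junction protein of astrocytes, which fibroblasts also make. Its levels were 9.89, 9.8 and 10.07 in NB_FACS, 9.34, 9.5 and 10.09 in NB_Control, 9, 9.44 and 9.47 in NB_Stim and 6.4 and 7.74 in A_FACS. The newborn groups lay close together and the adult arrays well below. A_FACS differed from NB_FACS by -2.85 ± 0.36 (adjusted p 0.000581), a 7.22-fold difference, and from NB_Control and NB_Stim by -2.57 and -2.24 (adjusted p 0.00041 and 0.00101). NB_Control and NB_Stim differed from NB_FACS by -0.28 ± 0.33 (adjusted p 0.578) and -0.62 ± 0.33 (adjusted p 0.186). These 3 calls held under every alternative run, but the size moved with the adult array. Without A_FACS replicate 1 the differences were -2.18, -1.90 and -1.57, and without replicate 2 they were -3.52, -3.24 and -2.91. NB_Stim was called lower than NB_FACS when only the 2 groups entered the fit (adjusted p 0.0485).

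Sox9, a transcription factor of radial glia and astrocytes, was at 9.05, 8.69 and 8.64 in NB_FACS, 7.82, 7.92 and 7.47 in NB_Control, 7.7, 7.84 and 9.06 in NB_Stim and 4.97 and 6.85 in A_FACS. It was highest in sorted newborn cells and on NB_Stim replicate 3. A_FACS differed from NB_FACS by -2.89 ± 0.53 (adjusted p 0.00398), by -1.94 without A_FACS replicate 1 and by -3.83 without replicate 2. By the methods' Tukey test this call was lost (adjusted p 0.0702). The interval of the NB_Control difference from NB_FACS was -2.12 to 0 (adjusted p 0.127), and it passed the threshold without either adult array (adjusted p 0.0446). Sox9 and Gja1 thus had their lowest levels in A_FACS, where Gfap, Chil1 and Aldoc differed little from NB_FACS. Against the cultured groups the adult difference of Sox9 was -1.83 (adjusted p 0.0204) and -2.29 (adjusted p 0.00699). Without A_FACS replicate 1 these were -0.88 (adjusted p 0.22) and -1.35 (adjusted p 0.0735), and the first was also lost without NB_Control replicate 1 (adjusted p 0.0517) or 2 (0.0558).

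Against the cultured groups the adult arrays were lower for most of the 10 genes. Gfap differed by -0.97 from NB_Control (adjusted p 0.0197) and by -1.22 from NB_Stim (adjusted p 0.00654). In the same order Chil1 differed by -2.1 and -2.59 (adjusted p 0.00118 and 0.000388), S100b by -2.25 and -2.91 (adjusted p 0.00473 and 0.00124) and Aldoc by -1.63 and -1.74 (adjusted p 2.71e-05 and 2.12e-05). For these 4 genes the comparisons share the cultured arrays with those against NB_FACS. Averaged over its probes, of which MMXS55483 gives only a bound in A_FACS, Slc1a2 differed by -1.68 and -2.22 (adjusted p 0.00271 and 0.00059), and by -1.22 and -0.98 (adjusted p 0.015 and 0.0393) with the probe well above background on all arrays, MMXS20953. Aldh1l1 differed by -2.75 from NB_Control (adjusted p 0.00101) and by -1.18 from NB_Stim (adjusted p 0.0632), the latter by -2.12 (adjusted p 0.00112) without A_FACS replicate 2 and by -0.24 (adjusted p 0.628) without A_FACS replicate 1. Its difference from NB_Control was -3.69 and -1.81 without these arrays, and was called each time. Clu differed by -0.08 and -0.79 (adjusted p 0.918 and 0.226), and without A_FACS replicate 2 by -1.62 from NB_Stim (adjusted p 0.0279). For Gfap both calls were lost with the brightest probe (-0.32 and -0.37, adjusted p 0.432 and 0.351) and without A_FACS replicate 2 (adjusted p 0.122 and 0.0527), and the first also without NB_Control replicate 1 (0.0633) or 2 (0.0636), and S100b was no longer called against NB_Control without A_FACS replicate 1 (adjusted p 0.0585).

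**Figure D3:**
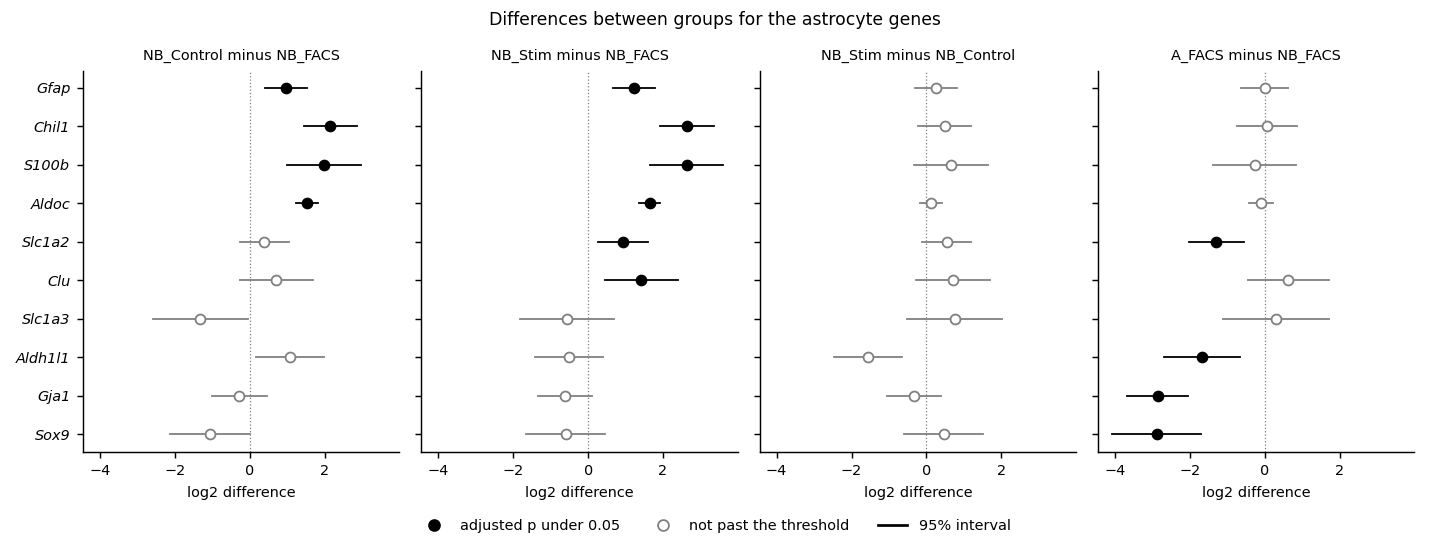
Log2 difference (horizontal axis) of each astrocyte gene (vertical axis) in 4 comparisons, with 95% intervals from the limma fit. Filled points passed an adjusted p under 0.05. The filled points are 4 higher genes in NB_Control, 6 higher in NB_Stim, none between NB_Stim and NB_Control, and 4 lower genes in A_FACS.

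The range of the astrocyte genes between arrays of the same group was wide in 2 of the groups. The median range between the arrays of a group was 0.95 for the 10 genes and 0.25 for all genes in A_FACS, and 0.88 against 0.38 in NB_Control. In NB_FACS and NB_Stim it was 0.41 and 0.38, beside 0.45 and 0.44 for all genes. NB_Stim replicate 3 was the highest array of its group for 10 of the 10 genes, whereas it was highest for 43.6% of all genes. NB_Control replicate 3 was the lowest of its group for 6 of the 10, beside 44.6% of all genes. A_FACS replicate 2 was above replicate 1 for 8 of the 10, beside 51.1% of all genes. The mean level of the 10 genes was 7.98, 8.1 and 7.56 in NB_Control and 7.87, 7.87 and 8.52 in NB_Stim, so that these groups were ordered one way on slide 1 and the other on slide 2. Slide 2 held only replicate 3 arrays, so slide and replicate number cannot be told apart.

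Other astrocyte genes were taken from a list of 52, in 4 groups by function, of which 43 were tested. Aqp4, Fgfr3 and Ndrg2 had no matched probe, and Mlc1, Slc25a18, Ntsr2, Gabrg1, Itih3 and Hapln1 did not pass the filter on dim signals. In NB_Control against NB_FACS 12 were called higher and 5 lower, with a median difference of 0.14, where 15.8% of all genes were called higher and 13.9% lower. The largest rises were those of F3, tissue factor, the starter of blood coagulation (4.45 ± 0.38, adjusted p 2.47e-05), Pla2g7, a lipase that cleaves platelet-activating factor (2.7 ± 0.19, adjusted p 7.23e-06) and Egfr, the epidermal growth factor receptor (2.62 ± 0.31, adjusted p 0.000168). The largest falls were those of the potassium channel gene Kcnj16 (-3.21 ± 0.57, adjusted p 0.00195), which was well above background on 1 of the 3 NB_Control arrays, the ectonucleotidase gene Entpd2 (-2.58 ± 0.24, adjusted p 3.91e-05), which was so on 2 of the 3, and Sdc4, a surface proteoglycan (-1.91 ± 0.2, adjusted p 9.46e-05). F3 and Sdc4 are made by many other cell types.

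The list was also counted by functional group, and differences between the groups were not tested. Of 11 tested genes for ion and water transport and coupling, 0 were called higher and 1 lower in NB_Control than in NB_FACS. Of 12 metabolic genes 5 were higher and 1 lower, of 12 surface and signalling genes 5 were higher and 3 lower, and of 8 secreted and matrix genes 2 were higher and 0 lower. In NB_Stim against NB_FACS the whole list had 15 higher and 7 lower, with a median of 0.36, beside 16.0% and 15.1% of all genes. In the same order of groups, 2, 5, 5 and 3 genes were higher there and 2, 2, 3 and 0 lower. Kcnj10, the inward rectifier that buffers potassium in astrocytes, was 0.75 higher there (adjusted p 0.0203).

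Between NB_Stim and NB_Control, 3 of the 43 genes were called, 1 higher and 2 lower, beside 1.40% and 2.00% of all genes. Bcan, the matrix proteoglycan brevican, was 0.62 ± 0.14 higher (adjusted p 0.0476). The zinc transporter gene Slc39a12 was lower in NB_Stim (-1.26 ± 0.21, adjusted p 0.00985), as was Sdc4 (-1.13 ± 0.2, adjusted p 0.0154). The median difference of the list was 0.13.

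In A_FACS against NB_FACS 11 of the 43 were lower and 1 higher, with a median difference of -0.37, beside 12.9% and 9.75% of all genes. The largest falls were Ednrb, an endothelin receptor (-4.28 ± 0.76, adjusted p 0.00344), Pla2g7 (-3.79 ± 0.21, adjusted p 7.13e-06) and Sdc4 (-3.65 ± 0.23, adjusted p 1.44e-05). Pla2g7 was well above background on 1 of the 2 adult arrays. Slc39a12 was the 1 gene called higher in the adult (1.81 ± 0.23, adjusted p 0.00058), at 9.05 ± 0.19 against 7.24 ± 0.15. Against NB_Control the adult had 17 lower and 3 higher, beside 23.2% and 17.7% of all genes, and against NB_Stim 20 lower and 4 higher, beside 22.8% and 17.5%.

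Genes of reactive astrocytes were a separate list of 10, of which all were tested. In NB_Control 7 were called higher than in NB_FACS and 0 lower, with a median difference of 2.65, beside 15.8% and 13.9% of all genes. In NB_Stim 6 were higher and 0 lower, with a median of 2.24, beside 16.0% and 15.1%. Timp1, an inhibitor of metalloproteinases, was at 5.24 ± 0.25 in NB_FACS and 13.29 ± 0.046 in NB_Control. Lcn2, an iron-trafficking acute-phase protein, was at 7.87 ± 0.84 in NB_FACS, 10.74 ± 0.69 in NB_Control and 11.19 ± 0.11 in NB_Stim. Serpina3n, a protease inhibitor, was at 4.72 ± 0.37, 11.34 ± 1.8 and 13.07 ± 0.65. Microglia and fibroblasts also make these 3. Between NB_Stim and NB_Control 0 of the 10 were called, with a median of 0.01.

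Among 15 genes of radial glia and developing astrocytes 2 were higher and 3 lower in NB_Control than in NB_FACS, beside 15.8% and 13.9% of all genes. Tnc, the matrix protein tenascin C, was at 7.67 ± 0.26 in NB_FACS and 12.41 ± 0.58 in NB_Control, while Nes, the intermediate filament nestin, was at 11.73 ± 0.27 and 9.47 ± 0.41. In the adult 7 of the 15 were called lower than in NB_FACS and 0 higher, beside 12.9% and 9.75% of all genes. Sox2, a transcription factor of neural progenitors, was at 3.91 ± 0.84 in A_FACS and 7.87 ± 0.71 in NB_FACS, and Hes5, a Notch target, at 3.78 ± 0.42 and 7.56 ± 0.47. Sox2 and Hes5 were each well above background on 1 of the 2 adult arrays.

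Markers of other cell types moved beside these results, and their part in them was not tested. The mean level of 12 fibroblast and mural cell genes was 6.57 to 6.71 on the NB_FACS arrays, 10 to 10.23 in NB_Control, 9.31 to 10.24 in NB_Stim and 4.95 to 6.09 in A_FACS. Of these, 9 were called higher in NB_Control and 11 in NB_Stim than in NB_FACS, and 6 lower and 2 higher in A_FACS. The shares of all genes called higher than in NB_FACS were 15.8% in NB_Control, 16.0% in NB_Stim and 9.75% in A_FACS, where 12.9% were lower. Col1a1, a collagen of fibroblasts, was 5.23 ± 0.44 higher in NB_Control than in NB_FACS (adjusted p 2.3e-05). Among 7 tested oligodendrocyte lineage genes, 2 were higher in NB_Control and 4 in NB_Stim than in NB_FACS, and 0 lower. The 9 endothelial genes had a mean level of 7.19 to 7.96 in NB_FACS and 4.79 to 5.06 in NB_Control, and were at 8.32 and 9.03 in A_FACS. The 6 ependymal and choroid plexus genes were at 7.86 to 8.38 in NB_FACS, 4.97 to 5.55 in NB_Control, 5.41 to 6.22 in NB_Stim, and 6.64 and 7.81 in A_FACS. The 11 neuronal genes were at 6.59 to 6.78, 5.97 to 6.35, 6.33 to 6.7, and 5.42 and 5.78 in the same groups. A_FACS replicate 1 was below replicate 2 in all of the fibroblast, endothelial, ependymal and neuronal means, as in that of the 10 astrocyte genes.

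**Figure D4:**
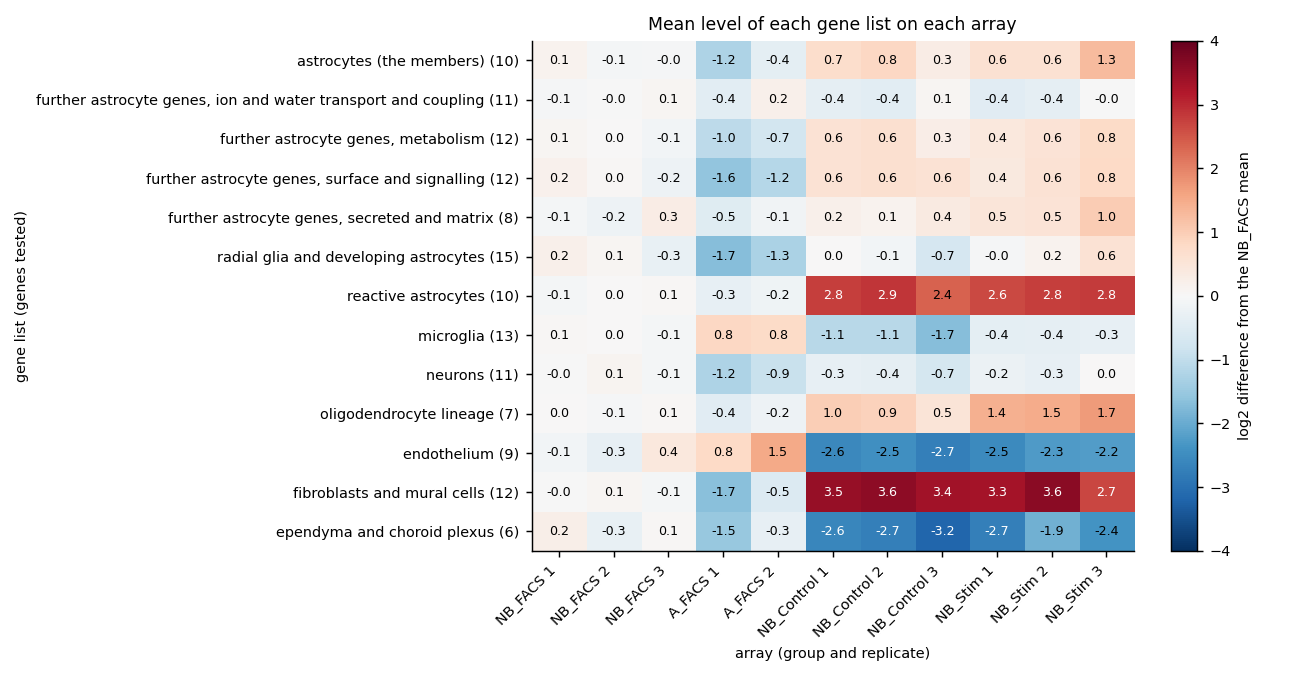
Mean level of each gene list (rows, with the number of genes tested) on each of the 11 arrays (columns), as the log2 difference from the mean of the 3 NB_FACS arrays, with red for higher and blue for lower. The cultured arrays are red for reactive astrocyte and fibroblast genes and blue for endothelial and ependymal genes, and the astrocyte row is darkest on NB_Stim replicate 3 in red and on A_FACS replicate 1 in blue.

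Genes whose levels followed each astrocyte gene most closely over the 11 arrays were sought among 16700 genes that were well above background on all arrays. The arrays share their groups, so a high r describes the group pattern. Nearest to Gfap were Tnr, an extracellular matrix glycoprotein (Pearson r 0.983), Lmtk2 (0.977) and Gm30471 (0.966). Chil1 was closest to Lcn2 (0.982), Zfp866 (0.977) and Agbl3 (0.976), and S100b to Pcp4 (0.988), Rab3a (0.981) and Trim32 (0.981). For Slc1a2 these were Rgs20 (0.994), Enho (0.989) and 1110065P20Rik (0.979), and for Slc1a3 Taar8b (0.978), Luzp2 (0.965) and Grhl1 (0.962). Aldh1l1 was followed by Hsd17b1 (0.978) and by the interferon-inducible genes Ifi204 (0.966) and Ifi207 (0.951). Aldoc was followed by Arl5a (0.995), Csf2rb2 (0.995) and Rnf5 (0.994). Gja1 had Olfr1018 (0.974), Speg (0.973) and Pxmp2 (0.973), Sox9 had Wwtr1, a coactivator of the Hippo pathway (0.968), Tiam2 (0.952) and Pard6b (0.951), and Clu had Actr3b (0.958), Prr23a1 (0.957) and Tgfb2 (0.955). None of the 10 astrocyte genes was among the 3 nearest genes of another.

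RefSeq promoter sequences of GRCm38.p6, from 250 bases before to 50 after each start, were at hand for 8 of the 10 genes, with 9 starts in all. They were searched for TTCNNNGAA, the motif of STAT factors, which act on Gfap in developing and reactive astrocytes. The motif reads the same on both strands. It was in 3 of these 9 promoters and in 8.3% of all 32851 promoters of the same length. Stretches around it are shown for Gfap and Aldoc, which were higher in culture, and for Slc1a3, which was not, with the motif in capitals.
Gfap, chr11:102897174-102897222, minus strand: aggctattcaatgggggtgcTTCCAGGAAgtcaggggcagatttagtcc
Aldoc, chr11:78324095-78324143, plus strand: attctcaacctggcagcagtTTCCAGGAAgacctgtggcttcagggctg
Slc1a3, chr15:8710875-8710923, minus strand: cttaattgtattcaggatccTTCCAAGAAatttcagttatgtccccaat
Relative to the start site, the motif begins at -2 in Gfap, at -96 in Slc1a3 and at -83 in Aldoc, counted from the later of its 2 starts, with a further match at -124. Chil1 and S100b, which were also higher in culture, hold no match in this window.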

How the data were processed

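Groups and replicate numbers came from the sample titles. The authors deposited the intensity of each spot as background-subtracted Agilent Feature Extraction 11.5.1.1 signals in arbitrary units, and the series' value table held the same numbers (0 of 62927 entries differed by more than 1e-05 of their size). For this work the signals were put on the log2 scale and averaged over the spots of a probe without outlier flags. They were then quantile normalised between arrays, as the study's methods state. Probe accessions were matched to symbols of GRCm38.p6, which named 36264 of 60037 probes. Probes had to be well above background throughout 1 group or more, and the probes of a gene were averaged to 19555 genes. Each gene was fitted with 1 mean per group over 11 arrays in limma 3.58.1 under R 4.3.3 (7 residual and 2.69 prior degrees of freedom), with Benjamini-Hochberg adjustment over all genes within each of 6 comparisons. The fit was tested on simulated data. Figures were drawn with matplotlib 3.10.9 under Python 3.11.15.

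The 10 genes and the gene lists were chosen with earlier results of these data known. Named were the 10 genes, each probe where a gene had several, the 3 genes nearest to each by Pearson r, and of the further astrocyte list the 3 largest called rises and falls in NB_Control and A_FACS against NB_FACS and in NB_Stim against NB_Control. Genes of other lists, and Kcnj10 of the further list, were named after their values were seen. The study's methods call replicates independent biological samples. To look for pairing by replicate number, the departures of same-numbered arrays from their group means were correlated. Those of the newborn groups correlated at 0.112 to 0.489, every pair above 0.1, while pairs with an adult array gave -0.069 to 0.168. Replicate 3 of the newborn groups was also the slide 2 array. A slide effect alone would make same-numbered newborn arrays depart together, so these values cannot show pairing. The reported fit used no block, and the replicate block was run as an alternative. No 2 arrays were duplicates. Alternatives covered scaling, background correction, the authors' value table, the probe filter, the brightest probe, replicate and slide blocks and only the groups compared. They also covered the methods' Tukey test, array weights, averaged cultured replicates and each array left out, with slide 1 arrays only added after seeing the data. The Tukey test used each gene's own spread, and its p-values were then adjusted by Benjamini-Hochberg over all genes, which the study's methods do not describe.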

Additional observations from a re-analysis of the deposited data

How the results depend on the processing

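Of the recomputed counts of called astrocyte genes, 128 stayed within 1.5 times the count reported and 16 did not. The 128 include the counts from the authors' value table, which holds the same signals and so could not differ. Between NB_Stim and NB_Control 1 gene, Aldh1l1, was called lower with 75th percentile scaling, with normexp, with only the groups compared and with array weights. In NB_Control against NB_FACS 7 were called with only the groups compared (5 higher, 2 lower), 9 with array weights (7 higher, 2 lower) and 2 by the methods' Tukey test, both higher. The lower genes were Slc1a3 and Sox9 in each case. In NB_Stim against NB_FACS 10 were called with array weights (6 higher, and Aldh1l1, Gja1, Slc1a3 and Sox9 lower) and 3 by the Tukey test, all higher, which called 1 lower in A_FACS against NB_FACS and 5 lower in A_FACS against NB_Control. Against NB_FACS the genes the Tukey test kept were Chil1 and Aldoc in NB_Control, Chil1, S100b and Aldoc in NB_Stim, and Gja1 in A_FACS. Why these counts moved was not tested. With each array left out the counts were 3 to 6 (NB_Control against NB_FACS), 4 to 6 (NB_Stim against NB_FACS), 0 to 1 (NB_Stim against NB_Control), 2 to 4 (A_FACS against NB_FACS), 6 to 9 (A_FACS against NB_Control) and 6 to 8 (A_FACS against NB_Stim). NB_Stim against NB_Control gave 1 without either A_FACS array, and A_FACS against NB_FACS gave 2 without A_FACS replicate 1, NB_FACS replicate 1 or NB_FACS replicate 2. With cultured replicates 1 and 2 averaged, which leaves fewer samples, the calls of Gfap in NB_Control (adjusted p 0.0891), of Clu and Slc1a2 in NB_Stim (0.0878 and 0.0885) and of Aldh1l1 in A_FACS (0.0565), all against NB_FACS, were lost, as were those of Gfap and Sox9 in A_FACS against NB_Control (0.0875 and 0.0646). With the replicate block the counts were 4, 6, 0, 4, 9 and 7 in the same order of comparisons, the call of Slc1a3 in A_FACS against NB_Control being added, and it changed no other call. On slide 1 alone, chosen after seeing the data, they were 6, 6, 0, 4, 9 and 8, with Slc1a3 called lower in both cultures than in NB_FACS and higher in A_FACS than in both. Signs turned only in differences that were not called. For NB_Stim minus NB_Control these were Aldoc (-0.10, 75th percentile scaling), Slc1a2 (-0.24, probes well above background on all arrays and the brightest probe), Gfap (-0.09) and Sox9 (-0.11) with array weights, and Gfap (-0.11), S100b (-0.01), Slc1a3 (-0.05) and Sox9 (-0.10) on slide 1. For A_FACS minus NB_FACS they were Gfap with 75th percentile scaling (0.13), the brightest probe (0.14) and array weights (0.04), and for A_FACS minus NB_Control Clu with averaged cultured replicates (0.13). With each array left out, NB_Stim minus NB_Control ran from -0.06 to 0.45 for Gfap and from -0.08 to 1.25 for Slc1a3. A_FACS minus NB_FACS ran from -0.23 to 0.04 for Aldoc, -0.14 to 0.39 for Chil1, -0.20 to 1.46 for Clu, -0.17 to 0.17 for Gfap and -1.03 to 0.48 for S100b. Clu ran from -0.90 to 0.75 in A_FACS minus NB_Control and from -1.62 to 0.04 in A_FACS minus NB_Stim.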
